A study of Mus musculus with 9 samples.

Results

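Complement transcripts were examined in blood RNA of mice with collagen-induced arthritis (CIA), with and without terahertz irradiation of the ankle. The 10 genes were taken by symbol from the 20926 genes of the expression table: C1qa, C1qb, C1qc, C3, Cfb, Cfp, Hc, C3ar1, C5ar1 and Cd55. All 10 were present. The 9 libraries came from 9 male DBA/1 mice, labelled 7-week-old, which the methods give as the age at allocation to groups. The 3 Ctrl mice were not given the arthritis model and were not irradiated, and whether they received adjuvant is not given in the sources used here. The 3 CIA mice had been immunised with chick type II collagen in complete Freund's adjuvant and boosted in incomplete adjuvant, and were not irradiated. The 3 CIA+THz mice had the same immunisation and received 0.1 THz on the swollen ankle for 30 min per day over 14 days, under isoflurane. Anaesthesia is described only for irradiation, so that irradiation and anaesthesia cannot be told apart here.

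Complement is a cascade of blood proteins that marks targets for uptake and attracts leukocytes. C1q bound to antibody opens the classical pathway, and C3, factor B and properdin carry the alternative pathway. C5 is cleaved downstream of both, its fragment C5a and the C3 fragment C3a are sensed by receptors on myeloid cells, and CD55 on the cell surface hastens the decay of the enzymes that cleave C3 and C5. Most complement protein in plasma comes from the liver, while leukocytes carry the receptors and regulators and make part of the properdin, C3 and C1q themselves.

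The values are FPKM, fragments scaled by transcript length and library total, divided by 1 scaling factor per library (0.847 to 1.24). The factor lowered the log2 values of CIA+THz by 0.28 against CIA and by 0.31 against Ctrl, and those of CIA by 0.03 against Ctrl, and results that rest on it are named. FPKM holds no read counts, so the depth is unknown. Between 11816 and 12264 genes were above 0 in the Ctrl libraries, between 11801 and 12066 in CIA and between 12449 and 12807 in CIA+THz. The labels name blood leukocytes, whereas the extraction protocol names total blood: all 6 pan-leukocyte markers were detected, and Alas2, an enzyme of heme synthesis in red cell precursors, took 14.4% to 16.6% of the summed FPKM as deposited in Ctrl, 16.3% to 16.7% in CIA and 11.4% to 13.99% in CIA+THz. CIA+THz was thus below both other groups in this share as well as higher in its scaling factors, and the part of red cell RNA in the complement values was not tested. In bulk RNA, fewer cells of a type and less RNA per cell cannot be told apart.

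By mean level over the 9 libraries, C5ar1 led with 75.9 rescaled FPKM, above 93.2% of the 12366 genes tested. C3 followed with 54.2 and Cd55 with 51.2, and the ranges of these genes over the libraries overlapped. Cfp (12.6) and C3ar1 (9.33) formed a middle pair, also with overlapping ranges. Cfb had 4.30, C1qb 2.35 and C1qc 1.37. C1qa (0.860) and Hc (0.221) were the lowest, and Hc lay above 6.40% of the genes tested.

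**Figure D1:**
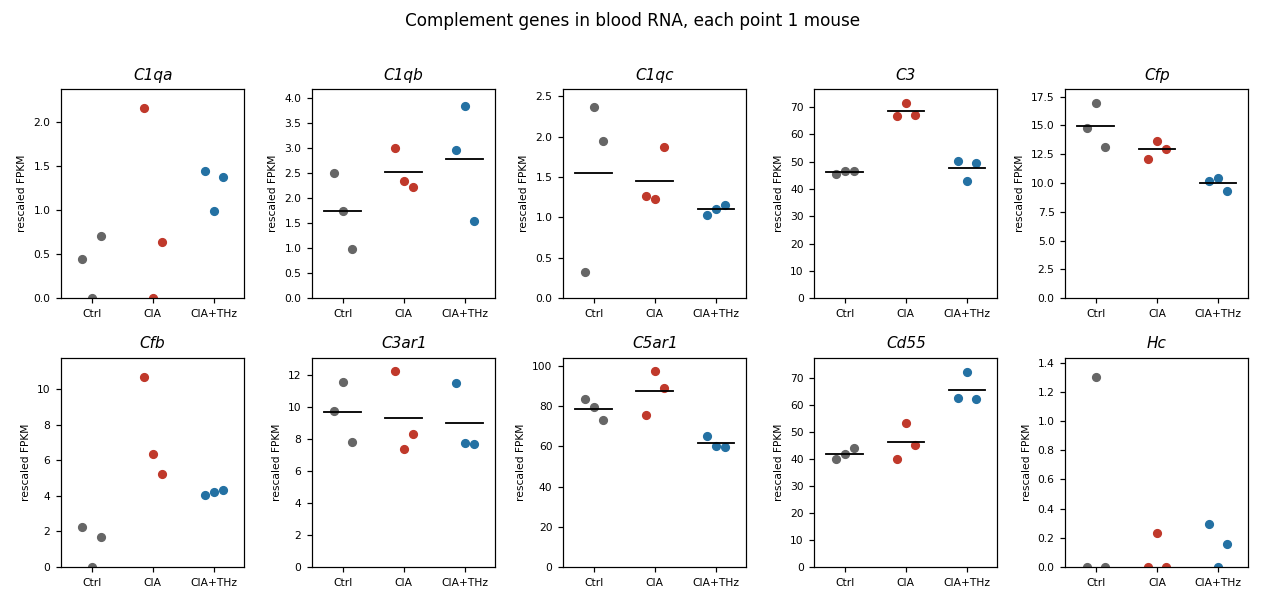
Rescaled FPKM (vertical axes, linear from 0) of the 10 complement genes in each of the 9 mice, by group. Points are single mice and lines are group means, drawn only for genes above 0 in every library; the 3 CIA points of C3 (66.7 to 71.6) lie above all others and the 3 CIA+THz points of Cd55 (62.0 to 72.2) lie above all others.

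In limma's moderated F-test over the 3 groups, 5 of the 10 genes reached an unadjusted p under 0.05 (C3, Cd55, C5ar1, Cfp and Cfb), against 21.3% of all genes tested. After Benjamini-Hochberg adjustment over all genes, 2 remained, C3 (adjusted p = 0.0279) and Cd55 (adjusted p = 0.0461), against 2.53% of all genes. The adjusted p was 0.0860 for C5ar1, 0.106 for Cfp and 0.129 for Cfb. With the FPKM as deposited, without the factor, 3 of the 10 had a p under 0.05. Pairs of groups were compared by the criterion of the study, an unadjusted p under 0.05 with an absolute log2 fold change above 0.67, and 0 of the 10 reached an adjusted p under 0.05 with limma in any pair, while 2, 5 and 4 reached an unadjusted one (CIA against Ctrl, then CIA+THz against CIA and against Ctrl). Some alternatives gave an adjusted p under 0.05 for C3 or Cd55, as given with those genes. With 3 mice against 3, an exact permutation test cannot go below p = 0.1, the value that groups without overlap give.

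C3 encodes the central protein of the cascade and lies on the minus strand of chromosome 17 (57203970 to 57228136, GRCm38). It stood at 45.5, 46.7 and 46.7 rescaled FPKM in the Ctrl mice, at 66.7, 71.6 and 67.2 in the CIA mice, and at 50.4, 43.1 and 49.6 in the CIA+THz mice. Every CIA mouse was above every other mouse, and the CIA+THz mice overlapped the Ctrl mice. The group means were 46.3 ± 0.704 (SD, n = 3), 68.5 ± 2.72 and 47.7 ± 3.99. CIA was 1.48-fold above Ctrl (log2 fold change 0.56 ± 0.096 SE, adjusted p = 0.0669 by limma), past the p but short of the 0.67. CIA+THz was below CIA by a log2 fold change of -0.52 (SE 0.095, adjusted p = 0.189), and the log2 fold change of CIA+THz against Ctrl was 0.04 (SE 0.100, adjusted p = 0.877). Over 13 alternatives the adjusted p of C3 in CIA against Ctrl ran from 0.0173 to 0.213, and it was under 0.05 in 2 of them, all 3 groups in 1 fit (0.0173) and no filter on low values (0.0387). The comparisons share the CIA mice or the Ctrl mice. Leaving out any 1 mouse kept the CIA value between 0.53 and 0.58 against Ctrl and between -0.57 and -0.45 for CIA+THz against CIA. The scaling moved the latter more: with the FPKM as deposited the log2 fold change was -0.25, the p was no longer under 0.05 and the groups overlapped, while that of CIA against Ctrl was 0.59 and kept both. The deposited values gave 0.35 for CIA+THz against Ctrl, with a limma p of 0.0396 (adjusted p = 0.191) and again with overlapping groups. The closeness of CIA+THz to Ctrl in C3 thus rested on the factor.

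The 250 bases before the RefSeq start of C3 are shown because C3 differed across the groups after adjustment. They were read 5′ to 3′ on the gene's minus strand, chr17:57228137-57228386 of GRCm38.p6, with capitals marking the only match to the C/EBP pattern TTGCNNAA.
C3: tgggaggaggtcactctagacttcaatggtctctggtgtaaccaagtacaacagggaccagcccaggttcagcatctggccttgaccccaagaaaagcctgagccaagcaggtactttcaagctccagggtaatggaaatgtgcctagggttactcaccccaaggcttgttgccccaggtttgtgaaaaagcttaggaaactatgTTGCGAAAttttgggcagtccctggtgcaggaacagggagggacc
This match, TTGCGAAA, lay from -45 to -38 counted back from the start. C/EBP factors act in myeloid and liver cells, and 9.56% of 32851 RefSeq windows of this length held the pattern on either strand. The window held no TATAAA, which 12.4% of windows held, and no GGGCGG. A match of letters is a description and does not show a bound site.

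Cfb encodes factor B, the serine protease subunit of the alternative C3 convertase (chromosome 17, 34856374 to 34862518, minus strand). It was listed at 2.25, 0 and 1.66 rescaled FPKM in Ctrl, at 10.7, 6.33 and 5.25 in CIA, and at 4.02, 4.19 and 4.31 in CIA+THz. The 3 groups did not overlap: Ctrl was lowest, CIA+THz lay between and within a narrow range, and CIA was highest. Cfb was the only one of the 10 past the criterion in CIA against Ctrl, where 9.04% of all genes were, and the only one in CIA+THz against CIA, where 4.54% were. The log2 fold change was 3.27 (SE 1.13, adjusted p = 0.217) in CIA against Ctrl. This size depended on the library at 0: without Ctrl mouse 2 it was 1.82, and with a pseudocount of 1 in place of 0.1 it was 1.98. Leaving out any 1 CIA mouse lost the call, with log2 fold changes between 2.98 and 3.48. For CIA+THz against CIA it was -0.75 (SE 0.271, adjusted p = 0.323), and -0.46 without CIA mouse 1, the highest, which was no longer a call. Leaving out any 1 CIA+THz mouse also lost that call (-0.77 to -0.72), as did the pseudocount of 1 (-0.65) and the FPKM as deposited (-0.48), although the groups still did not overlap in the deposited values. CIA+THz stood above Ctrl by 2.52 (SE 1.10, adjusted p = 0.285), short of a p under 0.05, and became a call at 1.07 without Ctrl mouse 2, at 3.35 without Ctrl mouse 1 and at 2.74 with the FPKM as deposited. The annotation has Gm20547, a longer gene model on the same strand, over most of Cfb, so reads of the 2 cannot be told apart where they overlap.

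Cfp encodes properdin, which stabilises the alternative convertase and is released by neutrophils and monocytes (chromosome X, 20925454 to 20931555, minus strand). The Ctrl mice had 14.8, 16.9 and 13.1 rescaled FPKM, the CIA mice 12.1, 13.7 and 12.98, and the CIA+THz mice 10.2, 10.4 and 9.28. Ctrl and CIA overlapped, and the CIA+THz mice were below both. The means were 14.9 ± 1.92 (SD, n = 3), 12.9 ± 0.781 and 9.97 ± 0.607. The log2 fold change was -0.20 (SE 0.149, adjusted p = 0.527) for CIA against Ctrl, -0.37 (SE 0.117, adjusted p = 0.281) in CIA+THz against CIA and -0.57 (SE 0.141, adjusted p = 0.137) in CIA+THz against Ctrl. The last 2 had an unadjusted p under 0.05 and were short of 0.67. With the FPKM as deposited they were -0.10 and -0.27, neither with a p under 0.05, and the CIA+THz mice overlapped CIA but stayed below Ctrl. The deposited values of the CIA mice also lay below Ctrl without overlap (-0.17, with no p under 0.05).

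The 3 chains of C1q, which recognises bound antibody, are encoded side by side within 18675 bases of chromosome 4 (136880129 to 136898803, all on the minus strand). C1qb had 2.51, 1.74 and 0.989 rescaled FPKM in Ctrl, 3.00, 2.34 and 2.23 in CIA, and 2.95, 3.84 and 1.55 in CIA+THz. C1qc had 0.326, 2.37 and 1.95 in Ctrl, 1.26, 1.22 and 1.87 in CIA, and 1.03, 1.11 and 1.15 in CIA+THz. C1qa was listed at 0.442, 0 and 0.700 in Ctrl, 2.15, 0 and 0.642 in CIA, and 1.44, 0.991 and 1.37 in CIA+THz. C1qa and C1qb overlapped between CIA and both other groups, and C1qc between every pair but CIA+THz and CIA, where it was lower and the deposited values overlapped. Only C1qa in CIA+THz against Ctrl passed the criterion, which 7.88% of all genes did, with a log2 fold change of 1.95 (SE 0.772, adjusted p = 0.248). Without Ctrl mouse 2, at 0, that value was 1.04, with a pseudocount of 1 it was 0.74, and leaving out any 1 CIA+THz mouse lost the call (1.85 to 2.10). Over the 9 libraries the Pearson correlation of C1qb and C1qc was -0.43, a description over libraries that share their groups. The summed level of the 3 chains was 3.27 to 4.11 in Ctrl, 3.57 to 6.42 in CIA and 4.07 to 5.94 in CIA+THz, with every pair of groups overlapping.

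C1q is made chiefly by tissue macrophages and dendritic cells. Of the 12 tissue macrophage markers listed, Vsig4, Marco and Mertk were at 0 in all 9 libraries and 8 were tested. The summed level of the list was 70.9 to 79.8 rescaled FPKM in Ctrl, 93.4 to 103 in CIA and 78.5 to 87.8 in CIA+THz. Nearly all of it was Slc40a1 (46.8 to 63.3 over the 9 libraries) and Adgre1, which had 17.0 to 20.2 in Ctrl, 36.6 to 50.99 in CIA and 28.9 to 38.4 in CIA+THz. The other 10 markers reached at most 1.43 in any library, so the sum is not a level of tissue macrophages.

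Hc encodes C5, a largely hepatic protein (chromosome 2, 34983331 to 35061438, minus strand). It was listed at 0, 1.30 and 0 rescaled FPKM in Ctrl, at 0, 0.233 and 0 in CIA, and at 0.295, 0 and 0.155 in CIA+THz. With 5 of 9 libraries at 0 and overlapping groups, no difference was detectable at these levels, and an antisense gene, Gm13449, overlaps it.

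C5ar1 encodes the receptor through which C5a attracts neutrophils and monocytes (chromosome 7, 16246743 to 16259540, minus strand). The Ctrl mice had 83.5, 79.8 and 73.1 rescaled FPKM, the CIA mice 75.7, 97.4 and 89.2, and the CIA+THz mice 65.0, 60.0 and 59.7. All 3 CIA+THz mice were below all others, and Ctrl and CIA overlapped. The means were 78.8 ± 5.24 (SD, n = 3), 87.5 ± 10.9 and 61.6 ± 2.97. The log2 fold change was 0.14 (SE 0.128, adjusted p = 0.598) in CIA against Ctrl, -0.50 (SE 0.113, adjusted p = 0.210) in CIA+THz against CIA and -0.35 (SE 0.0960, adjusted p = 0.144) in CIA+THz against Ctrl. The last 2 had an unadjusted p under 0.05, were short of 0.67, and kept that p without any 1 mouse (-0.60 to -0.42 and -0.41 to -0.31). With the FPKM as deposited they were -0.22 and -0.05, with overlapping groups and no p under 0.05.

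C3ar1, the receptor of C3a (chromosome 6, 122847138 to 122856161, minus strand), showed no such separation. It had 9.76, 11.6 and 7.78 rescaled FPKM in Ctrl, 12.2, 7.37 and 8.30 in CIA, and 11.5, 7.76 and 7.69 in CIA+THz. The 3 groups overlapped throughout, and the log2 fold changes were -0.08 (SE 0.246) in CIA against Ctrl, -0.04 (SE 0.248) in CIA+THz against CIA and -0.12 (SE 0.221) in CIA+THz against Ctrl, with adjusted p between 0.818 and 0.965. These p values do not show equal levels.

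Cd55 encodes decay-accelerating factor, the membrane regulator among the 10 (chromosome 1, 130439027 to 130462744, minus strand). The Ctrl mice had 39.9, 41.8 and 44.0 rescaled FPKM, the CIA mice 39.8, 53.4 and 45.2, and the CIA+THz mice 62.5, 72.2 and 62.0. All 3 CIA+THz mice were above the other 6, and Ctrl and CIA overlapped. The means were 41.9 ± 2.04 (SD, n = 3), 46.1 ± 6.86 and 65.6 ± 5.74. Against CIA, CIA+THz was 1.43-fold higher (log2 fold change 0.51, SE 0.131, adjusted p = 0.236), and against Ctrl 1.56-fold higher (0.64, SE 0.103, adjusted p = 0.0696). Both had an unadjusted p under 0.05 and were short of 0.67. The log2 fold change of CIA against Ctrl was 0.13 (SE 0.135, adjusted p = 0.658). Cd55 was the only one of the 10 with an unadjusted p under 0.05 in CIA+THz against CIA under both scalings: with the FPKM as deposited its log2 fold change was 0.79 against CIA and 0.95 against Ctrl, both past the criterion. The value against CIA stayed between 0.41 and 0.62 without any 1 mouse. The value against Ctrl was between 0.57 and 0.68, and it passed the criterion without Ctrl mouse 3 (0.68), CIA+THz mouse 1 (0.67) or CIA+THz mouse 3 (0.68). Its adjusted p ran from 0.0496 to 0.271 over 13 alternatives, under 0.05 in 1 of them, a mean of at least 1 rescaled FPKM. A related gene, Cd55b, lies beside it on the chromosome and could take some of its reads, and an antisense gene, Gm16083, overlaps it. Cd55b was listed at 0 in 7 of the 9 libraries and at no more than 0.268 rescaled FPKM.

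The window before the start of Cd55 is shown because Cd55 was the other gene that differed across the groups after adjustment. It covers chr1:130462745-130462994 of GRCm38.p6 and was read 5′ to 3′ on the minus strand, with capitals marking the matches to the GC box, GGGCGG, all on the opposite strand.
Cd55: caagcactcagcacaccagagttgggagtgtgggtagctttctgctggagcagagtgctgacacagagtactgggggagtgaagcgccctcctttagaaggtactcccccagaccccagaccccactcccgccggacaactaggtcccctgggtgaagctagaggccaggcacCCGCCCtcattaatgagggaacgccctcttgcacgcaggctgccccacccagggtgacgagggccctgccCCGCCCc
Matches lay from -77 to -72 and from -7 to -2, and 32.7% of the windows held 1 or more on either strand. The window held neither TATAAA nor the C/EBP pattern printed for C3. Matches to the NF-kB pattern lay on the gene's strand from -61 to -52 and -17 to -8. On the opposite strand they lay from -151 to -142, -61 to -52 and -16 to -7. This pattern was common, held by 45.8% of the windows, and the C3 window held it too. The C3 matches lay from -197 to -188, -33 to -24 and -10 to -1 on the gene's strand. Those on the opposite strand of C3 lay from -196 to -187 and -33 to -24. RefSeq windows were found for 8 of the 10 genes, all but C1qa and Cfb.

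**Figure D2:**
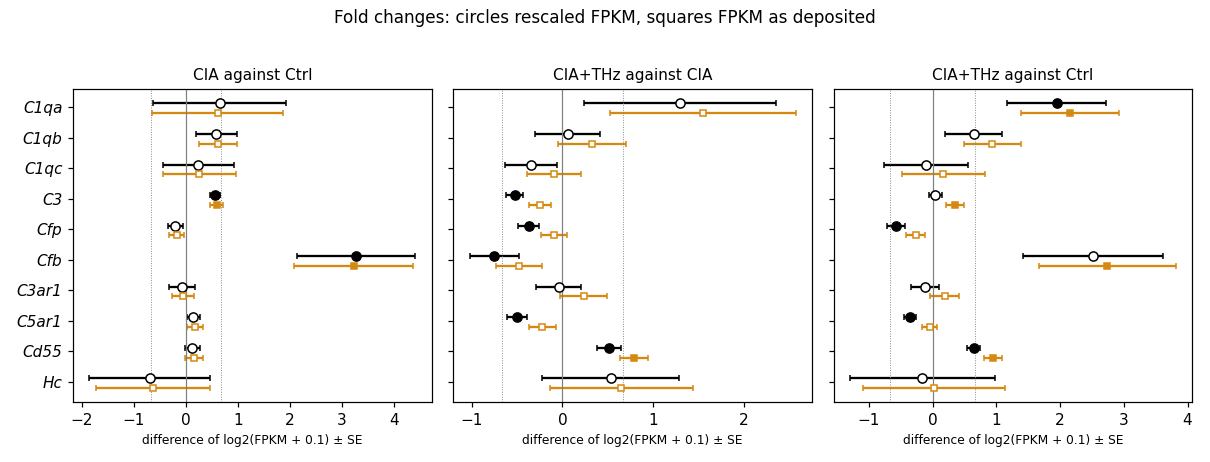
Log2 fold change (horizontal axes, difference of log2(FPKM + 0.1) with SE bars) of the 10 genes in the 3 comparisons, with circles for rescaled FPKM, squares for the FPKM as deposited, filled symbols for an unadjusted p under 0.05 and dotted lines at the fold threshold of 0.67. In CIA+THz against CIA, Cd55 is filled on both scalings (0.51 and 0.79), while C3 (-0.52), C5ar1 (-0.50), Cfp (-0.37) and Cfb (-0.75) are filled only after rescaling.

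By p alone, 2 of the 10 genes reached an unadjusted p under 0.05 for CIA against Ctrl (17.3% of all genes), 5 for CIA+THz against CIA (13.2%) and 4 for CIA+THz against Ctrl (18.1%). The groups did not overlap for 2 genes in CIA against Ctrl, both higher in CIA, where 23.5% of all genes did not. The deposited values kept these 2 apart, C3 and Cfb, and had 3 apart in all, with Cfp lower in CIA. The groups did not overlap for 6 genes in CIA+THz against CIA, against 19.6% of all genes, with Cd55 higher and C1qc, C3, Cfp, Cfb and C5ar1 lower. The deposited values kept 2 of these 6 apart, Cfb and Cd55. Between CIA+THz and Ctrl, 5 genes did not overlap, against 24% of all genes: C1qa, Cfb and Cd55 were higher, and Cfp and C5ar1 lower. The deposited values kept 4 of the 5 apart, all but C5ar1. The median log2 fold change of the 10 was 0.19 between CIA and Ctrl, -0.19 between CIA+THz and CIA, and -0.03 between CIA+THz and Ctrl (0.22, 0.07 and 0.27 as deposited).

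Blood cell markers differed between the same groups. All 12 classical monocyte markers were higher in CIA than in Ctrl (median log2 fold change 0.86), 7 of them past the criterion. In CIA+THz all 12 were below their CIA value (median -0.37), 3 past the criterion, against 7 of 12 below it in the FPKM as deposited (-0.09). Against Ctrl, 10 of 12 were higher in CIA+THz (median 0.58, 4 past the criterion), beside 0.04 for C3 and 2.52 for Cfb. As deposited, all 12 were higher (0.89). Their summed level was 3538 to 3904 rescaled FPKM in Ctrl, 5977 to 6692 in CIA and 4095 to 4440 in CIA+THz, beside C3 and Cfb. Most of each sum was Lyz2, with 2529 to 2812 in Ctrl, 4436 to 4916 in CIA and 2851 to 3078 in CIA+THz. Of the 10 immature neutrophil markers, 8 were higher in CIA than in Ctrl (median 1.39, 3 of them past the criterion). The other 2 were lower, 1 of them past the criterion, Mmp8 (group means 216 in Ctrl and 82.9 in CIA). Elane, Mpo, Prtn3 and Ctsg had group means of at most 0.873. In CIA+THz 9 were lower than in CIA (-0.47, 3 past it, or 8 lower and -0.24 as deposited). Against Ctrl, 7 were higher in CIA+THz (0.90, 3 past it) and 3 lower (2 past it). The sums were 576 to 1010 in Ctrl, 774 to 1815 in CIA and 516 to 687 in CIA+THz. Most of each sum was Lcn2, Mmp8, Chil1 and Ngp. Of these, Lcn2, Mmp8 and Chil1 were lower on average in CIA+THz than in Ctrl, and Ngp was higher. All 12 mature neutrophil markers were lowest in CIA+THz, against CIA (median -0.43, 3 past the criterion) and against Ctrl (-0.58, 4 past it), beside C5ar1 and Cfp. As deposited, 10 of 12 were lower in each (-0.16 and -0.28). In CIA against Ctrl, 9 of 12 were lower (-0.18, 2 past it), beside 0.14 for C5ar1 and -0.20 for Cfp. Their sums were 13689 to 22267 in Ctrl, 15407 to 19862 in CIA and 11594 to 13060 in CIA+THz. Most of each was S100a9, with 9176 to 16259 in Ctrl, 11212 to 14496 in CIA and 8096 to 9274 in CIA+THz. All 10 T cell markers tested (0.35) and 9 of 10 B cell markers (0.33) had a higher level in CIA+THz than in the CIA mice, 2 and 0 of them past the criterion, beside Cd55, and all 10 of each list did as deposited. So did all 7 NK cell markers tested (0.59, 2 past it) and 11 of 12 patrolling monocyte markers (0.41, 2 past it), and all 7 and all 12 as deposited. Against Ctrl, as for Cd55, 10 of 12 patrolling monocyte markers (0.63, 6 past the criterion) and all 10 B cell markers (0.54, 3 past it) were higher, while 5 of 10 T cell markers (0.02) and 0 of 7 NK cell markers (-0.41) were. As deposited, 11, 10, 9 and 2 markers of these lists were higher. In CIA against Ctrl, beside 0.13 for Cd55, all 10 T cell markers (-0.33, 1 past it) and all 7 NK cell markers (-0.99, 4 past it) were lower. In the same comparison 7 of 10 B cell markers (0.19) and 8 of 12 patrolling monocyte markers (0.20) were higher. The T cell sums were 330 to 369 in Ctrl, 266 to 290 in CIA and 324 to 441 in CIA+THz, the B cell sums 471 to 558, 513 to 652 and 608 to 790, the NK cell sums 142 to 184, 50.2 to 114 and 92.9 to 147, and the patrolling monocyte sums 207 to 240, 183 to 240 and 256 to 296. The part of these cell types in the complement values was not tested.

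**Figure D3:**
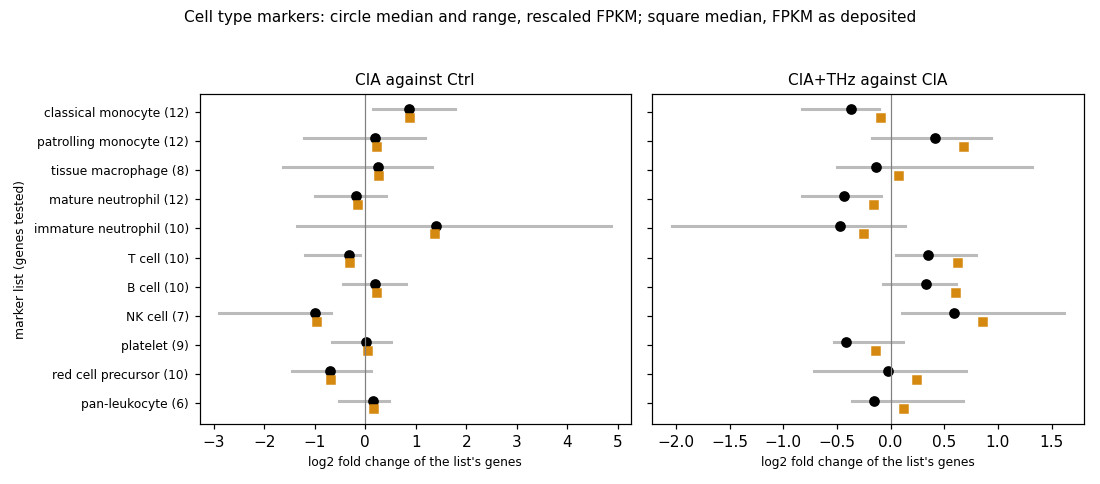
Log2 fold changes (horizontal axes) of 11 lists of cell type markers, with black circles for the median and grey bars for the range over the genes tested (number in brackets) from rescaled FPKM, and squares for the median from the FPKM as deposited. In CIA+THz against CIA the lowest medians are those of immature neutrophil (-0.47), mature neutrophil (-0.43), platelet (-0.41) and classical monocyte (-0.37) markers. The highest are those of NK cell (0.59), patrolling monocyte (0.41), T cell (0.35) and B cell (0.33) markers.

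The wider complement list held 54 genes, of which 31 were tested, 21 had a mean of at least 1 rescaled FPKM and 14 were at 0 in every library. The criterion was met by 6 of the 31 in CIA against Ctrl (4 higher, 2 lower, against 9.04% of all genes tested), by Cfb alone between CIA+THz and CIA (4.54%), and by 6 between CIA+THz and Ctrl (3 higher, 3 lower, against 7.88%). The F-test gave 14 at an unadjusted p under 0.05 (21.3% of all genes) and 5 at an adjusted p under 0.05 (2.53%), among them C3, Cd55, Cd59a and Fcna. The median log2 fold change of the 31 was 0.19, -0.14 and 0.01 in the 3 comparisons, beside medians of -0.01, 0.03 and 0.04 over all genes tested. With the FPKM as deposited the median of the 31 was 0.22, 0.14 and 0.31, of the other sign between CIA+THz and CIA.

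Among the other regulators, Cd59a, a membrane inhibitor of the terminal pore, had 194, 172 and 114 rescaled FPKM in Ctrl, 98.4, 47.0 and 66.4 in CIA, and 43.1, 72.5 and 68.3 in CIA+THz. Its log2 fold change against Ctrl was -1.21 (SE 0.302, adjusted p = 0.129) in CIA and -1.38 (SE 0.258, adjusted p = 0.0892) in CIA+THz, with no overlap in either. All but 1 of the 10 red cell precursor markers were also lower in CIA than in Ctrl (median -0.70, 3 past the criterion). The exception was Alas2, most of the list's summed level, with group means of 85630 in Ctrl and 91159 in CIA and overlapping groups. The part of these cells in Cd59a was not tested. Serping1, the C1 inhibitor, passed the criterion in CIA+THz against Ctrl from low values, at most 0.583 rescaled FPKM and at 0 in 3 libraries.

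Among the recognition genes, Fcna, which encodes ficolin A of the lectin pathway, was at 5.77, 2.84 and 2.73 rescaled FPKM in Ctrl, was listed at 0 in all 3 CIA mice, and was at 0.458, 0 and 1.42 in CIA+THz. It was the only gene of the 54 with an adjusted p under 0.05 in CIA against Ctrl (adjusted p = 0.0214 by limma). The CIA values at 0 have no spread, and the log2 fold change was -5.19 with the pseudocount of 0.1 and -2.20 with 1. An antisense gene, Fcnaos, overlaps Fcna. Colec12, a scavenger receptor of the collectin family, had 1.24 to 1.68 in Ctrl, 2.23 to 3.28 in CIA and 1.90 to 2.92 in CIA+THz, and passed the criterion in both against Ctrl (log2 fold changes 0.83 and 0.73). C1ra, a protease of the C1 complex, passed in CIA against Ctrl with 2 Ctrl libraries at 0 and no value above 0.950.

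**Figure D4:**
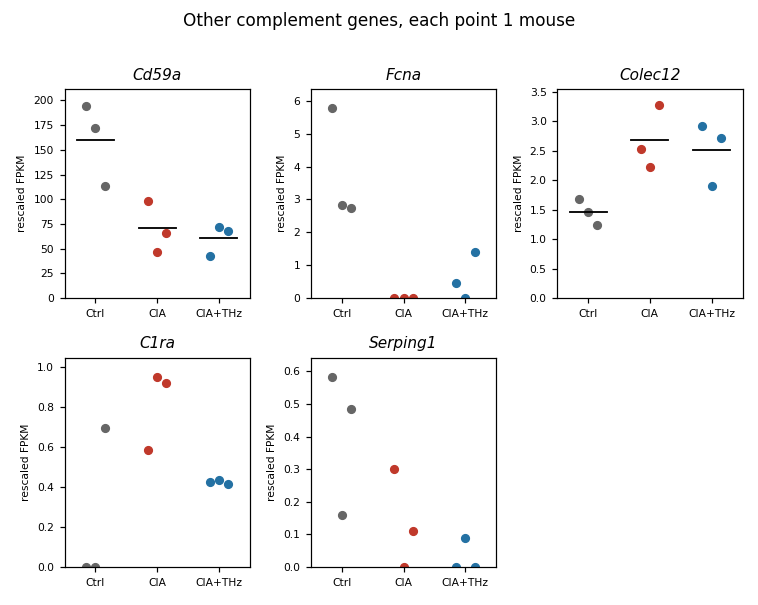
Rescaled FPKM (vertical axes, linear from 0) of 5 complement genes outside the 10 that passed the criterion in any comparison, in each of the 9 mice, with lines for group means where no library is at 0. Cd59a is below Ctrl in all 6 arthritic mice (43.1 to 98.4 against 114 to 194), and Fcna is at 0 in all 3 CIA mice.

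**Figure D5:**
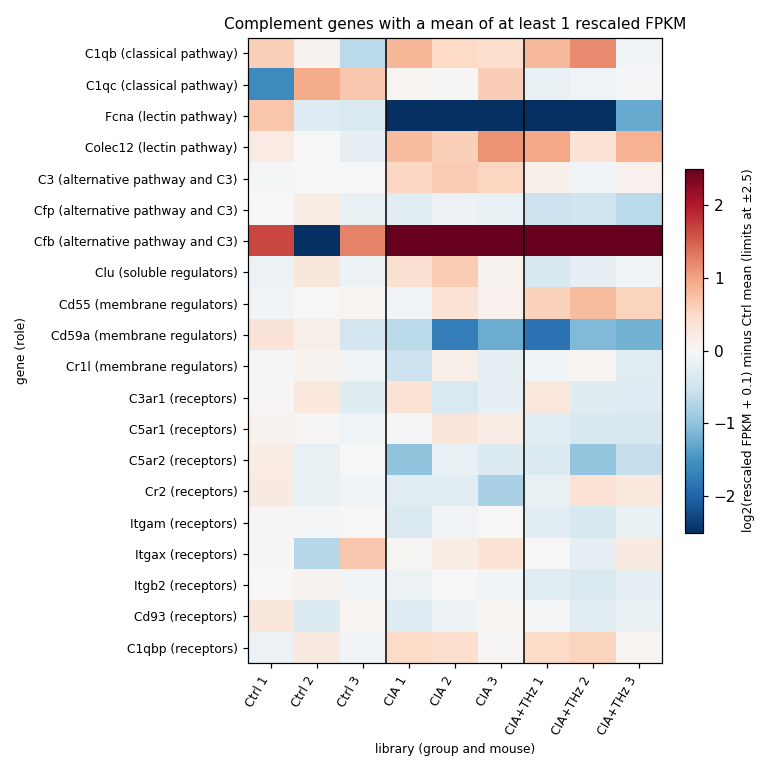
Log2(rescaled FPKM + 0.1) minus the Ctrl mean of each gene, for complement genes with a mean of at least 1, in rows by role, and the 9 libraries in columns; colours stop at ±2.5 and Cfb and Fcna, which have libraries at 0, pass those limits. C3 is furthest above its Ctrl mean in the 3 CIA libraries and Cd55 in the 3 CIA+THz libraries.

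For the 8 genes with a mean of at least 1, the genes most alike over the 9 libraries were sought by Pearson correlation of log2 values among 9748 genes, as a description over libraries that share their groups. The level of C3 was most like that of Ogfr (r = 0.97), Acot8 (0.96) and Arpc1b (0.96), which were also highest in CIA on average. Cfb was most like Steap3 (0.98), Dusp22 (0.97) and Lyl1 (0.96). C5ar1 was most like Ctsd (0.98), which encodes a lysosomal protease, and Klc4 (0.97). Cfp was most like Pcsk7 (0.95), Retnlg (0.94) and Glipr2 (0.94), and Retnlg, a neutrophil gene, had group means of 682, 573 and 321 rescaled FPKM in Ctrl, CIA and CIA+THz. Cd55 was most like Ccr7 (0.93), the homing receptor of naive lymphocytes, Tmem186 (0.93) and Aldh7a1 (0.92), and Ccr7 had means of 127, 129 and 169. C1qb led with Higd1a (0.97), Lta (0.96) and Tbck (0.94), C1qc with Slc35e4 (0.95), Numb (0.95) and Tomm40l (0.93), and C3ar1 with Znhit2 (0.91), Ppp1r7 (0.89) and Rab4a (0.86). Among the 10 themselves, Cfp and C5ar1 correlated at 0.77, C3 and C5ar1 at 0.63, and Cd55 ran against Cfp (-0.77) and C5ar1 (-0.64).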

How the data were processed

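Blood RNA of 9 mice was sequenced in paired-end mode on an Illumina HiSeq, 1 library per mouse. The authors deposited FPKM, 1 column per library, for 20926 gene symbols. The submitters' processing notes name bcl2fastq 2.0, HISAT2, StringTie, DESeq2 and mm10, and the annotation, strand setting and filters are not given in the sources used here. Groups came from the sample labels. Each library is a different mouse, and p values measure the spread between them.

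Columns were scaled by the median-of-ratios method, using 10312 genes with no value of 0. The 12366 genes whose mean after scaling reached 0.1 were tested on log2(rescaled FPKM + 0.1), a scale on which the fold change of low genes depends on the pseudocount and on libraries at 0, with limma 3.58.1 (lmFit, eBayes with trend) in R 4.3.3, each pair of groups on its 6 libraries. Adjusted p values are Benjamini-Hochberg over all genes tested. The fits were checked on simulated data that held no value of 0, with changes placed only in genes with a mean of at least 1. Genes with libraries at 0 were not covered by this check. The same-numbered mice of different groups did not deviate together.

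The 10 genes, the complement list of 54 and the marker lists were chosen with earlier results of these data known. The genes named were the 10, the other complement genes past the criterion in any comparison, and the 3 most alike genes. Of these, 2 genes are not reported here. Coordinates are from GENCODE M21 and promoter windows from RefSeq (GRCm38.p6), matched by symbol. Motifs were searched on both strands. Alternatives were no scaling (the FPKM as deposited), a larger pseudocount of 1, no filter or a stricter filter on low values, no trend, all 3 groups fitted together, a replicate block, each library left out in turn, the adjusted p, and an analysis of variance on linear values. The count of the 10 genes by p alone was added after the data were seen.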

Additional observations from a re-analysis of the deposited data

How the results depend on the processing

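Depth and the number of mice limit these results: low genes with libraries at 0 (C1qa, Cfb, Hc) carry no known read count, and the p of C3, C5ar1, Cfp and Cfb between CIA+THz and CIA depended on the scaling. Of the 10 genes, 1 passed the criterion in each comparison. In CIA against Ctrl this became 0 with no filter on low values and 0 by the adjusted p, and 0 to 1 without 1 mouse, each CIA mouse giving 0. In CIA+THz against CIA it became 0 with a pseudocount of 1, with all 3 groups in 1 fit and by the adjusted p, and 0 to 1 without 1 mouse, each CIA+THz mouse giving 0. The 1 gene was Cd55 in place of Cfb with the FPKM as deposited, and C1qa in place of Cfb without CIA mouse 1. In CIA+THz against Ctrl it became 3 with the FPKM as deposited, 2 with a pseudocount of 1, 0 with no filter, 0 with no trend and 0 by the adjusted p, and 0 to 3 without 1 mouse (3 without Ctrl mouse 1, 0 without CIA+THz mouse 2). The 1 gene was Cfb in place of C1qa with all 3 groups in 1 fit, and with the stricter filter, a mean of at least 1. It was Cd55 without CIA+THz mouse 1 or 3.

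By p alone, the 2 genes in CIA against Ctrl became 1 with no filter and 1 to 2 without 1 mouse, each CIA mouse giving 1, and the 5 in CIA+THz against CIA became 1 with the FPKM as deposited. The 4 in CIA+THz against Ctrl stayed 4 as deposited, with C3 and Cfb in place of C5ar1 and Cfp. Across the 3 groups the 5 became 3 with the FPKM as deposited and 2 by the adjusted p. Of the complement list, the 6 past the criterion in CIA against Ctrl and the 6 in CIA+THz against Ctrl each became 1 by the adjusted p. The 1 in CIA+THz against CIA became 2 with the FPKM as deposited, 0 with a pseudocount of 1, 2 with no filter, 2 with no trend and 0 by the adjusted p, and 0 to 3 without 1 mouse (3 without CIA mouse 1 or 3, 0 without CIA+THz mouse 3). With all 3 groups in 1 fit, and without CIA+THz mouse 1 or 2, the 1 gene was not Cfb. The 14 across the 3 groups became 5 by the adjusted p and 9 to 15 without 1 mouse, 9 without CIA+THz mouse 3. Over all genes, the FPKM as deposited moved the count past the criterion in CIA+THz against CIA from 561 to 1199 and in CIA+THz against Ctrl from 975 to 1720, a pseudocount of 1 moved the former to 283, and leaving out Ctrl mouse 3 moved the latter to 1487. The adjusted p left 19, 0 and 13 genes in the 3 comparisons.

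Log2 fold changes reversed in sign in 22 settings. With the FPKM as deposited, C3ar1 became 0.23 in CIA+THz against CIA and 0.19 against Ctrl, and C1qc 0.17 and Hc 0.0204 in CIA+THz against Ctrl. Without 1 mouse, the ranges in CIA against Ctrl were -0.37 to 1.88 for C1qa, -0.56 to 0.71 for C1qc, -0.29 to 0.0712 for C3ar1 and -1.33 to 0.58 for Hc, those in CIA+THz against CIA were -0.21 to 0.41 for C1qb and -0.23 to 0.17 for C3ar1, and those in CIA+THz against Ctrl were -0.91 to 0.36 for C1qc, -0.0026 to 0.11 for C3, -0.31 to 0.0165 for C3ar1 and -0.80 to 1.11 for Hc.

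Replicate numbers did not pair the mice: deviations of same-numbered mice correlated between -0.05 and 0.03, with 0 of 9 pairs above 0.1. With the replicate number as a block, 2 of the 10 genes passed the criterion in CIA+THz against Ctrl (C1qa and Cfb), and the counts of the 10 in the other comparisons did not move. The cause of these shifts was not tested.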
